A study of Mus musculus with 8 samples.

Results

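The 8 genes described here carry the calcium cycle of the heartbeat: Ryr2, Atp2a2, Pln, Sln, Casq2, Cacna1c, Slc8a1 and Camk2d. RXR peaks were assigned to them by position alone, where the summit of a peak lay inside the gene or within 50 kb of it (RefSeq genes on mm10). This rule took 54 of the 23961 peaks in the series: 0 of 8 in edKO replicate 3, 1 of 127 in edKO replicate 4, 40 of 19129 in WT replicate 3 and 13 of 4697 in WT replicate 4. The peaks come from RXR chromatin immunoprecipitation and sequencing (ChIP-seq) of single hearts taken at postnatal day 0, with 2 edKO and 2 WT hearts, numbered 3 and 4 in each genotype, and an input library beside each immunoprecipitate. In edKO newborns the genes for RXR alpha and RXR beta (RXRab-/-) are deleted in cardiomyocytes, and the promoter that drives the deletion is not given in the labels. The whole heart was used, so both genotypes also hold cells that still carry these genes, and binding in fewer cells cannot be told apart from less binding per cell. Peak lists hold no transcript levels, so neither the tissue nor the loss of RXR could be checked against marker genes.

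In each heartbeat, calcium entering the cardiomyocyte through the L-type channel, whose pore is encoded by Cacna1c, opens the ryanodine receptor Ryr2 and releases a larger store from the sarcoplasmic reticulum. Atp2a2 encodes the pump that returns calcium to this store, Pln and Sln encode small membrane proteins that inhibit such pumps, and Casq2 encodes the protein that buffers calcium inside the store. Slc8a1 encodes the sodium-calcium exchanger that removes calcium from the cell, and Camk2d the calmodulin-dependent kinase that phosphorylates several of these proteins. RXR proteins are nuclear receptors that bind DNA mostly as partners of other nuclear receptors, at paired hexamers related to AGGTCA.

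RXR peaks lay near all 8 genes in WT replicate 3, where 64.5% of all protein-coding genes had one within 50 kb. Peaks shared by both WT hearts lay near 6 of the 8, against 32.4% of all protein-coding genes. A single peak, 18.6 kb from Atp2a2, was listed in an edKO heart, replicate 4. Of all protein-coding genes, 0.119% had a peak of edKO replicate 3 and 1.52% one of edKO replicate 4. Ryr2 and Atp2a2 had the strongest regions, both outside the gene body, and Atp2a2 also had the largest number of peaks. Of the 6 genes with a transcription start in the promoter table used here, Cacna1c and Camk2d had a region at a start. Atp2a2 and Sln have no entry there, and a shared region of Atp2a2 had its summit 371 bp outside an end of the gene. Sln and Casq2 had a single peak each, in WT replicate 3.

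Since both WT peaks reached into them, the 250 bases before the starts of Camk2d and Cacna1c are shown, 5′ to 3′ in the direction of transcription, from RefSeq on build GRCm38.p6. Capitals mark any match, on either strand, to the nuclear receptor hexamer AGGTCA or to a variant of it, which was GGGTCA with another first base, AGTTCA with another inner base or GGTTCA with both changes. The Camk2d sequence is chr3:126596701-126596950, plus strand. The Cacna1c sequence is chr6:119196410-119196659, minus strand.
Camk2d: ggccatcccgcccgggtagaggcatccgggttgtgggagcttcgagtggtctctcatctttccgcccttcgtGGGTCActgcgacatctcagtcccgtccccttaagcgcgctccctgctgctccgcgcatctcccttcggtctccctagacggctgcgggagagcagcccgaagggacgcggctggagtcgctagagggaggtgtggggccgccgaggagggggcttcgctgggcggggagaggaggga
Cacna1c: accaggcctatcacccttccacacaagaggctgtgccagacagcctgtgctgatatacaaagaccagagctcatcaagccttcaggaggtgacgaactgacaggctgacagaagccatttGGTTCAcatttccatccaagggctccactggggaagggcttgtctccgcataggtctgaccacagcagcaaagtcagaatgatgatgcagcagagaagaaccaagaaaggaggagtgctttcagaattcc
Each stretch holds 1 such hexamer, beginning 178 bases before the start of Camk2d and 130 bases before that of Cacna1c. At least 1 of the 4 hexamers is present in 36.5% of the 21263 promoter stretches of this length in the table, so a single match is common. Neither stretch holds a direct repeat of any 2 of the hexamers with a spacer of 0 to 5 bases, which 0.499% of the stretches do. The Camk2d stretch is 68.4% G and C with 23 CpG dinucleotides, and the Cacna1c stretch 51.6% with 2. Over all stretches the medians are 55.6% and 10. Of the 8 genes, 6 have an entry in the promoter table. The sequence under the other peaks was not used here.

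The number of peaks in the 8 windows was compared between genotypes. The whole lists held 8 and 127 peaks in edKO replicates 3 and 4, against 19129 and 4697 in WT replicates 3 and 4. With lists of such unequal size, most windows would hold fewer edKO peaks. The comparison therefore describes the series and not these genes alone. The windows held 0 and 1 peaks in edKO replicates 3 and 4, against 40 and 13 peaks in WT replicates 3 and 4. The genotypes did not overlap, with 0.500 ± 0.707 peaks in edKO hearts and 26.5 ± 19.1 in WT hearts (SD, n = 2 each), a difference of -26.0 peaks. The exact permutation test gave a two-sided p = 0.33, which is the smallest that 2 hearts against 2 allow. The windows held a small part of every list, at 0% and 0.787% of the peaks of edKO replicates 3 and 4, against 0.209% and 0.277% of those of WT replicates 3 and 4. Of all 21887 protein-coding genes, 0.119% had a peak of edKO replicate 3 within 50 kb and 1.52% a peak of edKO replicate 4, against 64.5% for WT replicate 3 and 33.5% for WT replicate 4. Of the 8 genes, 0 had a peak of edKO replicate 3 and 1 a peak of edKO replicate 4, against 8 for WT replicate 3 and 6 for WT replicate 4. Without Atp2a2, a choice made after its values were seen, the difference was -17.0 peaks (exact permutation p = 0.33).

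**Figure D1:**
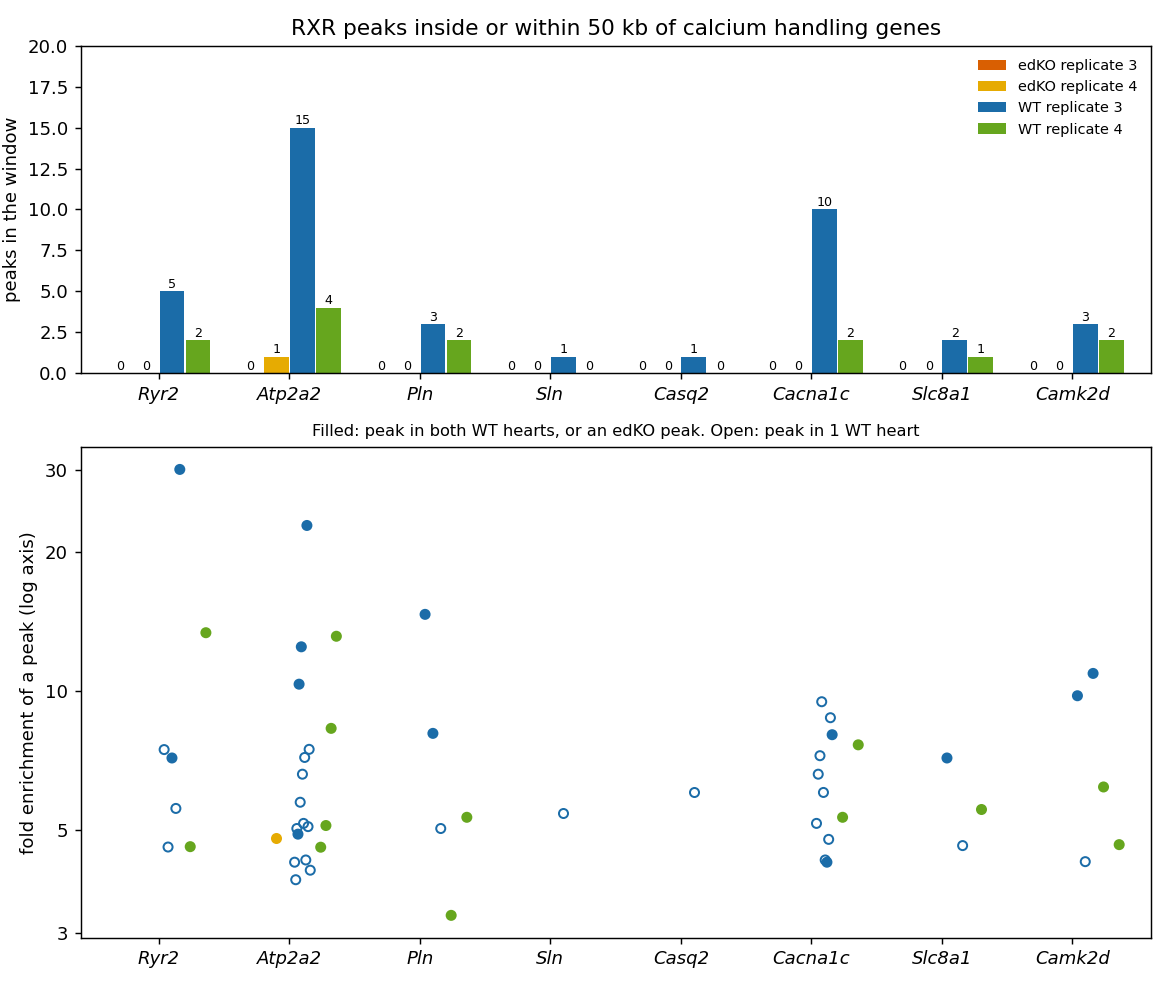
RXR peaks inside or within 50 kb of the 8 calcium handling genes, by heart. The upper bars count peaks, and each lower point is the authors' fold enrichment of 1 peak on a log axis, filled where both WT hearts had the peak or where the heart was edKO. Atp2a2 leads with 15 peaks in WT replicate 3 and 4 in WT replicate 4, and the only edKO point, at 4.80, lies there.

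Shared regions, in which the peaks of both WT hearts overlapped by at least 1 bp, numbered 13 in the windows of 6 genes. Atp2a2 had 4, Ryr2, Pln, Cacna1c and Camk2d 2 each, and Slc8a1 1. Thus 6 of 8 genes had such a region (75.0%, 95% Clopper-Pearson interval 34.9 to 96.8%), where 32.4% of all protein-coding genes did. Since 4 of the 8 are longer than 100 kb, the background was also taken by length. All 4 long genes had a region, against 35.4% of genes of that length, and 2 of the 4 shorter genes did, against 32.1%. With the limit set at 10 kb, 5 of the 8 genes had a region, against 17.5% of all genes. Inside the gene itself 4 of the 8 had one, against 9.28% of all genes of any length. Of these 4, Cacna1c, Slc8a1 and Camk2d are 610, 365 and 251 kb long. A longer gene has more room for a summit inside it, and this share was not taken by length. The lists were chosen with results of these data known, and genes are not replicates. These counts and the interval are therefore descriptions without a test.

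All 13 peaks of WT replicate 4 in the windows overlapped a peak of WT replicate 3, against 94.4% over its whole list. In the other direction 13 of 40 window peaks of WT replicate 3 were shared (32.5%, interval 18.6 to 49.1%), against 22.9% over its list. Among the window peaks of WT replicate 3, the median fold enrichment was 9.76 for the 13 shared ones and 5.17 for the 27 found in that heart alone, beside 9.47 and 5.17 in the whole list. The summits of the 2 hearts lay a median of 38 bp apart in the 13 regions, at most 188 bp, and 36 bp apart over all 4342 shared regions. In strength the 13 regions were close to the others, since the mean fold enrichment of the WT hearts had a median of 7.78 in the windows, against 7.81 over all shared regions. Of the 13 summits, 3 lay within 1000 bp of a protein-coding gene end, where 36.9% of all shared regions did, and 8 lay inside a protein-coding gene, against 57.1%. A gene end here is an outer limit of the gene record. For Camk2d and Cacna1c the record begins upstream of the starts in the promoter table. The Camk2d summit near its start was therefore not counted, and a Cacna1c summit upstream of its start counts as inside.

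**Figure D2:**
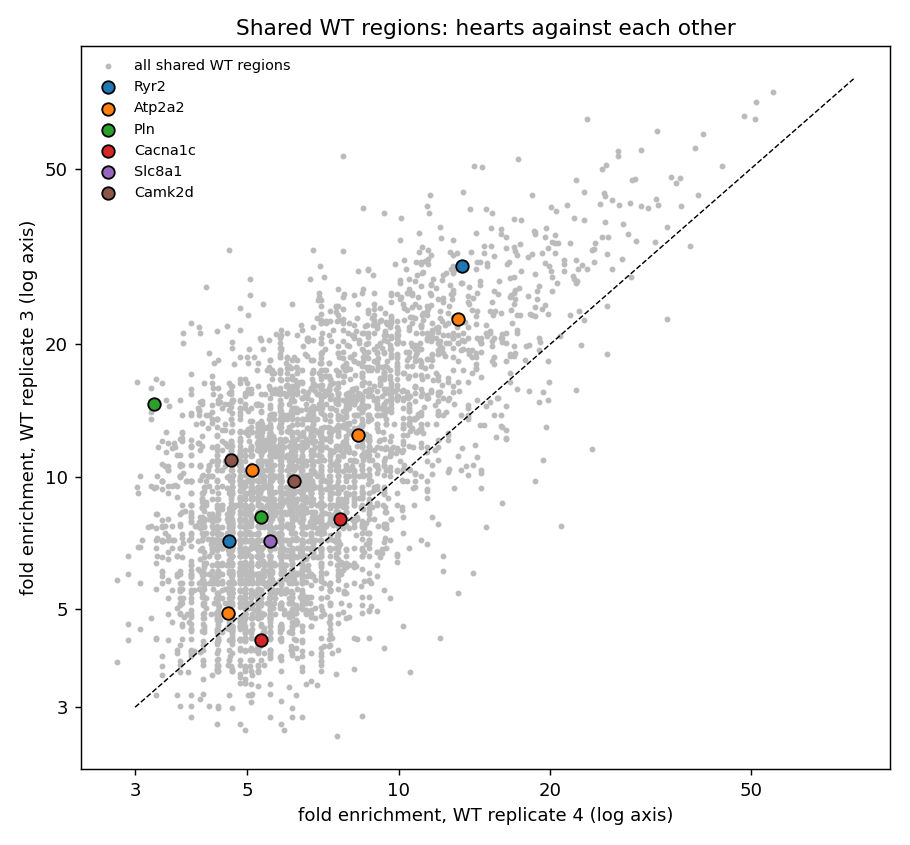
Fold enrichment of the 4342 regions shared by the WT hearts (grey) and of the 13 in the calcium handling windows (coloured by gene), WT replicate 3 against WT replicate 4, on log axes with the line of equal values dashed. The strongest Ryr2 and Atp2a2 regions sit toward the upper right. Of the 13 points 12 lie above the line, as do 82.7% of all shared regions.

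The fold enrichment is the authors' ratio of fragments at the summit to the local background of the same heart. Both quantities were recovered from the peak's fold enrichment and p-value, so the counts behind each ratio can be given. In the windows, a summit rested on 18 fragments in edKO replicate 4, on 13 to 104 in WT replicate 3 and on 17 to 57 in WT replicate 4. The intervals of these counts are exact Poisson intervals at 95% and cover counting error only.

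Ryr2, the calcium release channel, had the strongest region of the 8 genes. It spanned positions 12133237 to 12133986 of chromosome 13, and its summit lay 26.6 kb upstream of the Ryr2 start and 47.8 kb from the next protein-coding gene, Mtr. No edKO peak was listed there, while WT replicate 3 reached a fold enrichment of 30.1 and WT replicate 4 one of 13.4. The WT values rest on 104 fragments (interval 85.0 to 126) and 57 fragments (43.2 to 73.9). With a mean fold enrichment of 21.8 ± 11.9 (SD, n = 2), the region ranked 155 among all 4342 shared regions. Of the 155 regions to that rank, 82 (52.9%) had a peak of edKO replicate 4, and the Ryr2 region was among those that had none.

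A weaker shared region lay 21.1 kb upstream of Ryr2, where WT replicate 3 had a fold enrichment of 7.16 and WT replicate 4 one of 4.60. A peak of WT replicate 3 alone, at 5.57, lay between them, 25.3 kb upstream. Inside the gene, which is 554 kb long, only WT replicate 3 had peaks, at 7.46 (35.5 kb after the start) and 4.59 (2397 bp after the start). Both shared regions of Ryr2 thus lay in its 5′ flank, and no heart had a peak farther than 35.5 kb into the gene or beyond its other end.

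Cacna1c, which encodes the pore of the L-type channel, had a shared region next to the most upstream start in the promoter table. The region ran on chromosome 6 from 119196411 to 119197031, just short of the start itself, and the neighbouring gene Dcp1b also spans it. Its summits lay 256 bp upstream of the start in WT replicate 3 and 210 bp upstream in WT replicate 4, so the summit of WT replicate 4 falls within the printed sequence. The WT hearts gave nearly equal values, as WT replicate 3 had 8.04 on 27 fragments and WT replicate 4 had 7.64 on 29. The peaks of WT replicates 3 and 4 covered 249 and 172 of the 250 bases shown, and the GGTTCA hexamer lay within both. The other shared region, inside the gene on chromosome 6 from 119139562 to 119139841, was the only one of the 13 with the lower value in WT replicate 3 (4.26, against 5.33 in WT replicate 4). The intervals of its counts overlap, at 19 fragments (11.4 to 29.7) and 21 fragments (13.0 to 32.1).

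All 10 Cacna1c peaks of WT replicate 3 had their summit inside the gene, which spans 610 kb. The strongest of the 8 found in that heart alone had fold enrichments of 9.47, 8.75 and 7.24. The first and second of these were higher than either shared region in the same heart. No heart had a peak in the 250 bases before the other 2 Cacna1c starts of the promoter table.

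Atp2a2, the gene of the calcium pump of the sarcoplasmic reticulum, lay in the densest stretch. WT replicate 3 had 15 peaks in its window and WT replicate 4 had 4, all shared. At least 15 peaks of WT replicate 3 were near 49 of the 21887 protein-coding genes (0.224%), and at least 4 shared regions near 398 (1.82%). Of the 15 peaks, 11 lay beyond the higher-coordinate end of the gene (position 122502225 on chromosome 5), within a span of 25.4 kb, at a median spacing of 1.63 kb. Atp2a2 has no entry in the promoter table, so it was not assigned which end holds its start. The outer 3 of these 11 peaks were nearer to the neighbouring gene Ift81 than to Atp2a2. A further 2 lay inside Atp2a2 and 2 beyond its other end, where 1 of them lay 0.241 kb from Anapc7.

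**Figure D3:**
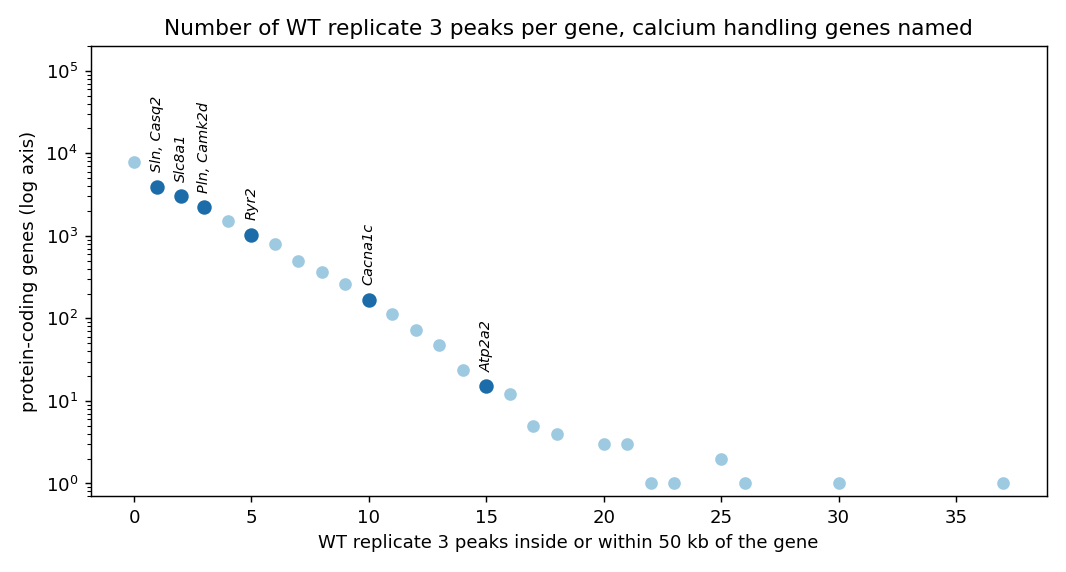
Number of protein-coding genes (log axis) by how many WT replicate 3 peaks lie inside or within 50 kb of the gene, with the 8 calcium handling genes in dark blue. Atp2a2 sits at 15 peaks and Cacna1c at 10, while the other 6 have between 1 and 5.

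The strongest Atp2a2 region, on chromosome 5 from 122520587 to 122521506, was the single region with an edKO peak. The summit of WT replicate 3 lay 18.6 kb from Atp2a2 and 19.4 kb from Ift81, so the region was about as far from either gene. The fold enrichment of the region was 4.80 in edKO replicate 4, against 22.8 in WT replicate 3 and 13.1 in the other WT heart. No peak was listed there in edKO replicate 3. In fragments, the summit had 18 in edKO replicate 4 (interval 10.7 to 28.4), against 85 in WT replicate 3 (67.9 to 105) and 44 in WT replicate 4 (32.0 to 59.1). The edKO interval did not overlap either WT interval. However, the region was defined by its WT peaks, and the counts are of single hearts and not scaled for sequencing depth. The intervals therefore do not measure a difference between genotypes. The local background was 2.96 fragments in edKO replicate 4 and 2.77 and 2.40 fragments in WT replicates 3 and 4. The edKO summit lay 28 bp from that of WT replicate 3. The fold enrichment in edKO replicate 4 was 0.267 times the WT mean, near the median of 0.250 over all 125 shared regions with a peak in that heart. The peak ranked 116 among the 127 of its list. By the mean fold enrichment of the WT hearts, the region ranked 277 among all shared regions. Of the 277 regions to that rank, 106 (38.3%) had a peak of edKO replicate 4.

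Of the 13 regions, 12 had no edKO peak, against 97.0% of all shared regions. In the series as a whole, 0.184% of the shared regions had a peak of edKO replicate 3 and 2.88% one of edKO replicate 4, beside 0 and 1 of these 13. The edKO lists reach less deep, so the values of the WT peaks were set against them. All 13 regions had a −log10 p above 6.03, the smallest value listed in edKO replicate 4, in each WT heart. The smallest value in edKO replicate 3 was 9.53, which WT replicate 3 exceeded at 12 of the 13 regions and WT replicate 4 at 9. The absence of a listed peak is not an absence of signal, since the lists give nothing below their own limits.

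The other 3 shared regions of Atp2a2 had no edKO peak. The region 7.63 kb beyond the higher-coordinate end had fold enrichments of 12.5 and 8.30 in WT replicates 3 and 4. The region next to that end, with its summit 371 bp outside the gene, had 10.3 and 5.11. The last lay just inside the gene, on chromosome 5 from 122501289 to 122501701, and had the lowest mean of the WT hearts among the 13, with 4.90 and 4.59. The strongest peaks of WT replicate 3 alone had fold enrichments of 7.47, 7.18 and 6.60 and lay in the same flank.

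**Figure D4:**
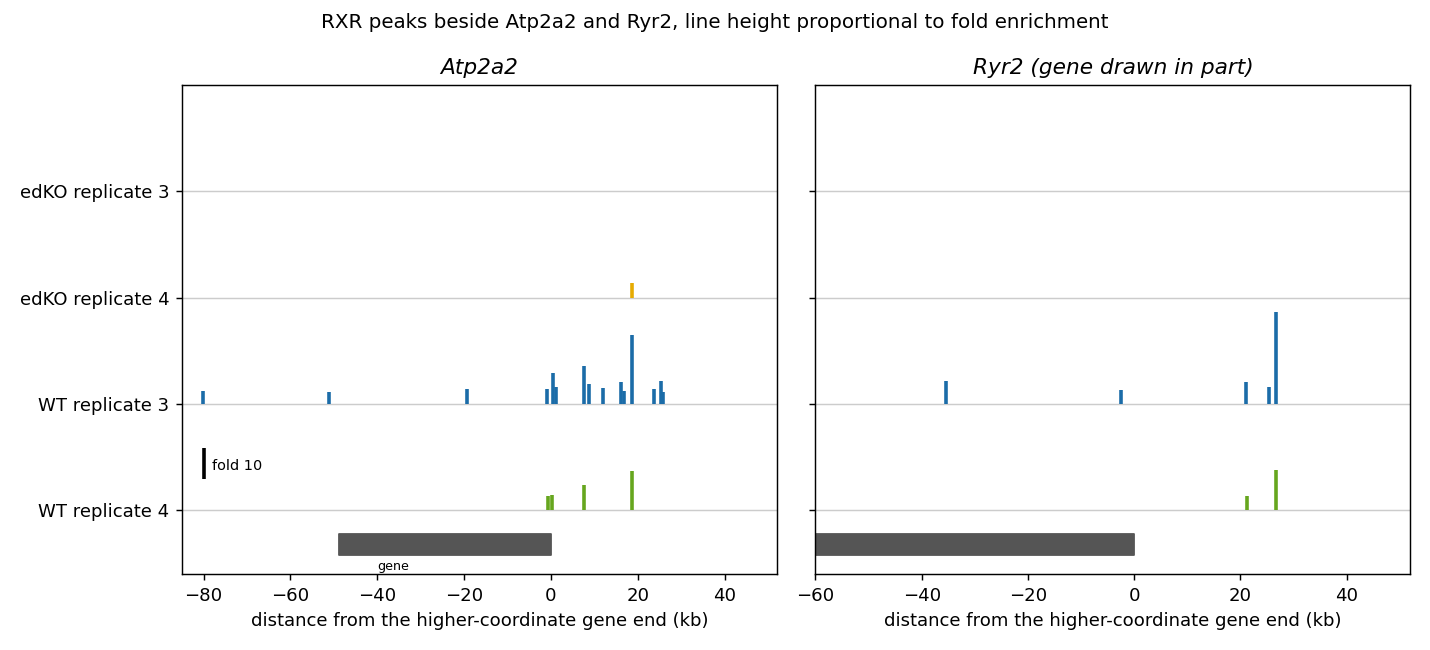
Peaks in the Atp2a2 and Ryr2 windows by distance from the higher-coordinate end of the gene in kb, 1 row per heart, with line heights proportional to fold enrichment and the gene as a grey bar (Ryr2 drawn in part). In both genes the tallest lines of the WT hearts stand outside the gene, at 18.6 kb for Atp2a2, where the edKO line also stands, and at 26.6 kb for Ryr2.

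Pln, which encodes the main inhibitor of the pump in the ventricle, had no peak inside the gene. Both of its shared regions lay upstream of Pln and inside the gene Cep85l, which extends on both sides of Pln. With only the nearest gene counted, Pln thus had none. The region 12.8 kb upstream, on chromosome 10 from 53324638 to 53325172, reached 14.6 in WT replicate 3, the other WT heart having 3.27. This ratio of 4.48 between the hearts was the largest of the 13, and 0.530% of all shared regions had one as large. The counts differed less, with 50 fragments (interval 37.1 to 65.9) in WT replicate 3 and 26 (17.0 to 38.1) in WT replicate 4, a ratio of 1.92. In the same order the local background was 2.48 and 7.24 fragments, the higher of which was the highest behind any window peak. The region 4.72 kb upstream had 8.09 and 5.33. WT replicate 3 alone had a further peak on the other side of Pln, at 5.04 and also inside Cep85l.

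Sln encodes sarcolipin, a pump regulator found in the atria of the heart, and had 1 peak, inside the gene, in WT replicate 3 only. Its fold enrichment was 5.45 on 18 fragments (interval 10.7 to 28.4), close to the list's median of 5.46. Casq2, the calcium buffer, likewise had 1 peak in WT replicate 3 only, of 6.03 on 20 fragments. It lay 45.0 kb upstream of Casq2, and the gene Nhlh2 was nearer, at 25.9 kb. With a limit of 10 kb this peak falls out, and Casq2 has none. The lowest summit count listed was 24 fragments in edKO replicate 3, above both of these counts, while it was 17 in edKO replicate 4 and 12 in WT replicate 4, below both.

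Slc8a1, the sodium-calcium exchanger gene, had 1 shared region, on chromosome 17 from 81498926 to 81499269, 239 kb after the start and inside the gene. No edKO peak was listed, while WT replicate 3 had a fold enrichment of 7.16 on 26 fragments and WT replicate 4 one of 5.55 on 18. A further peak inside the gene, at 4.63, was found in WT replicate 3 alone. No peak lay within 50 kb outside the gene, and none covered the 250 bases before its start.

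Camk2d, the kinase gene, had 2 shared regions of similar strength, both with the summit inside the gene. The region at the start, on chromosome 3 from 126596180 to 126597797, was the widest of the 13 at 1618 bp, against a median of 451 bp. WT replicate 3 had a fold enrichment of 9.76 and WT replicate 4 one of 6.19, with the summits 197 and 229 bp after the annotated start. The peak of WT replicate 3 covered all 250 printed bases and that of WT replicate 4 the last 15, so the GGGTCA hexamer lay in the peak of WT replicate 3 only. The other region lay 150 kb after the start, from 126746394 to 126746728, where the WT hearts had 10.9 and 4.65. One more peak, at 4.27, was found in WT replicate 3 alone.

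Ordered by the mean fold enrichment of their strongest shared region, the genes ran from Ryr2 (21.8 ± 11.9) and Atp2a2 (18.0 ± 6.84) to Pln (8.95 ± 8.04), Camk2d (7.98 ± 2.52), Cacna1c (7.84 ± 0.279) and Slc8a1 (6.35 ± 1.14; SD, n = 2 WT hearts each). As ranges over both WT hearts, the values overlapped between all neighbours in this order except Cacna1c, at 7.64 to 8.04, and Slc8a1, at 5.55 to 7.16. The same 2 hearts gave every value, so neighbours were also compared within each heart. Ryr2 over Atp2a2, Atp2a2 over Pln and Cacna1c over Slc8a1 held in both. In WT replicate 4, Pln (3.27) lay below Camk2d (6.19), and Camk2d below Cacna1c (7.64), against the order of the means. Only Ryr2 and Atp2a2 reached the strongest 10% of shared regions, at 3.57% and 6.38% from the top. The other 4 genes lay between 38.0% and 70.3%.

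The window of Atp2a2 was denser in peaks than the other windows together. The 8 windows together span 2.70 Mb and held 14.8 peaks of WT replicate 3 and 4.81 shared regions per Mb, against 10.2 and 2.36 per Mb over the windows of all protein-coding genes. The Atp2a2 window alone held 101 peaks and 26.9 shared regions per Mb. Without it, the remaining windows held 9.80 peaks of WT replicate 3 per Mb, slightly below the background, and 3.53 shared regions per Mb. Among the long genes, Slc8a1 had the lowest density, at 0.430 peaks of WT replicate 3 per 100 kb of window, and Cacna1c had 1.41.

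The wider calcium handling pathway was examined through 65 further genes listed from their textbook roles. Of these, 36 had a shared region within 50 kb (55.4%, interval 42.5 to 67.7%), against 32.4% of all protein-coding genes. Genes are not replicates and the list was written with earlier results of these data known. The count and its interval are therefore descriptions and no test against that share. The median of their strongest regions, 8.88, was close to the 8.67 of all genes with a region. By role, 9 of 20 sarcoplasmic reticulum genes, 4 of 8 surface channel subunits, 6 of 11 pumps, exchangers and mitochondrial uptake genes, 11 of 17 genes of beta-adrenergic and cyclic AMP signalling, and 6 of 9 genes of calmodulin, its kinases and calcineurin had a region. These role groups were formed after the counts were known. No gene of the 65 had a peak of edKO replicate 3, against 0.119% of all protein-coding genes. Of the 65, 1 gene, Orai1, had a peak of edKO replicate 4, against 1.52% of all protein-coding genes.

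The strongest region of the 65 genes was that counted for Tmem38a, which encodes an intracellular cation channel, with 22.7 and 23.3 in WT replicates 3 and 4, but it lay 445 bp from Med26 and 22.4 kb from Tmem38a. In the same order of hearts, Akap7, which encodes an anchoring protein for protein kinase A, had a region inside the gene with 26.0 and 12.8. Adrb1, the beta-1 adrenergic receptor gene, had one 11.3 kb outside (21.2 and 16.3), and Adcy6, an adenylyl cyclase gene, one inside (21.5 and 15.2). Orai1, the pore of store-operated calcium entry, had a region 329 bp outside the gene (21.1 and 16.0). Tmem38b (23.0 and 10.8), the T-type calcium channel gene Cacna1g (24.4 and 7.02) and the mitochondrial inner membrane gene Letm1 (17.2 and 11.9) had regions inside the gene. The junctophilin gene Jph2, named after its values were seen, had 6 shared regions, the highest number of the 65, and 13 peaks of WT replicate 3. Among genes of the same families as the 8, Ryr3, Casq1, Slc8a2, Slc8a3, Atp2a1 and the calcium channel genes Cacna1d and Cacna1h had no shared region. The pump gene Atp2a3 (9.47 and 5.55) and the kinase gene Camk2a (5.96 and 6.78) had 1 each. The kinase genes Camk2b and Camk2g had 2 each, the stronger with 16.1 and 4.65 for Camk2b and with 11.9 and 5.81 for Camk2g. The Camk2g region lay 59 bp from Chchd1 and 31.9 kb from Camk2g.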

How the data were processed

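RXR ChIP-seq peak lists of 2 edKO and 2 WT hearts were analysed. The submitters' processing notes name the build mm10 (GRCm38) and the tools MACS3, SAMtools, BWA and cutadapt, without versions or settings. Per the labels, 1 list belongs to each heart, with the input as its background. The deposited lists give a fold enrichment (a ratio), −log10 p and −log10 q values, and an integer score that was not used. Coordinates are 1-based.

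Genes came from a RefSeq table of GRCm38.p6 (21887 protein-coding genes). Peaks overlapping by at least 1 bp were shared, with 1 peak per WT heart and the summit of WT replicate 3. Fragments and background were solved from fold enrichment (pseudocount 1) and a Poisson −log10 p. Before this, each immunoprecipitate was given the scale that made the largest share of its peaks whole numbers of fragments. The scale was 0.992 and 1 in edKO replicates 3 and 4, and 1 and 0.967 in WT replicates 3 and 4. Counts and backgrounds are given after division by it. With these scales, at least 99.96% of the peaks in each list gave a whole number within 0.02. The scale was chosen for this share, so the share is no independent check. The lowest background was 3.13 and 2.96 fragments per position in edKO replicates 3 and 4, and 2.48 and 2.40 in WT replicates 3 and 4. Whether duplicates were removed is not stated.

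Peak numbers were compared with an exact permutation test, two-sided (Python 3.11.15, scipy 1.17.1), and the steps were tested on simulated data. All 8 members are named, with their shared regions and up to 3 of the strongest peaks of WT replicate 3 alone. Of the 65 further genes, the 8 with the strongest region are named. The members and lists were chosen with earlier results of these data known. Alternatives changed the distance, the threshold, the overlap, the assignment and the hearts used.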

Additional observations from a re-analysis of the deposited data

How the results depend on the processing

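Counting only summits inside a gene gave 6 shared regions, 6 without an edKO peak and 19 further genes, against 13, 12 and 36 with 50 kb. A −log10 p of at least 10 in every list gave 8 shared regions. Between using WT replicate 4 alone (without WT replicate 3) and WT replicate 3 alone (without WT replicate 4), the windows held 13 to 40 peaks, 12 to 39 of them without an edKO peak, and 36 to 59 further genes had a peak. The number of members with a region stayed between 4 and 8. The edKO minus WT difference in peaks kept its sign under all 11 alternatives, from -39.5 to -12.5 when 1 heart was left out, and reached no p below 0.33 (exact permutation test). The edKO lists are far smaller than the WT lists, so most windows would keep this sign, which therefore describes the series and not these genes alone. In a replicate block, with genotype permuted within the heart number, the difference was -26.0 and the exact permutation p = 0.5, the smallest that 2 pairs allow. The labels do not say that the number pairs the hearts. The 27 window peaks that only WT replicate 3 holds rest on 13 to 41 fragments, and a list with fewer peaks cannot show that they are absent.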
